A study of Drosophila melanogaster with 35 samples.

Results

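The proteasome subunit genes of Drosophila melanogaster were followed through RNA-seq of whole heads and through Ribo-Seq of neurons with less kdm5. They were taken as every gene whose symbol begins with Prosalpha or Prosbeta, or with Rpn or Rpt and a number, which gave 48 of the 17830 genes in the count table. Of these, 32 encode the main subunits (7 Prosalpha, 7 Prosbeta, 6 Rpt and 12 Rpn genes), and 16 are paralogs of such subunits, which were kept apart. The rule used symbols only, but it was set with earlier results of these data known. All 32 main genes and 11 of the 16 paralogs passed the filter on low counts, and all 48 had a row in the Ribo-Seq table.

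The proteasome degrades proteins that carry ubiquitin chains. Its barrel, the 20S core, is built of outer rings of alpha subunits, which gate the entry, and inner rings of beta subunits, of which Prosbeta1, Prosbeta2 and Prosbeta5 carry the proteolytic sites. The 19S cap binds, unfolds and feeds in the substrate, with a ring of Rpt ATPases and a set of Rpn subunits that bind ubiquitin, remove it or hold the cap together.

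KDM5 is a chromatin protein and a demethylase of histone H3 lysine 4, and changes in its human relative KDM5C are linked to intellectual disability. Head RNA came from strains with the KDM5 changes D234G, R873W, Y874C, A224T or L854F, which carry variants of Claes-Jensen syndrome, from the demethylase-dead strain JmjC (n = 3 libraries each), and from flies with WT KDM5 (n = 5). Flies were kept at 25 °C with 12 h of light and taken 1 to 5 days after eclosion, and the labels used here give neither sex nor the number of heads in a library. Ribo-Seq set elav;RPL3-FLAG;kdm5RNAI flies, in which the neuronal elav driver is combined with a tagged ribosomal protein and RNA interference against kdm5, against elav;RPL3-FLAG flies (n = 3 IP and 3 Input libraries each), and only the authors' comparison of both genotypes was used. The question was how each KDM5 change, and less KDM5 in neurons, altered the level of these genes.

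Gene counts per head library were 16787755 to 32730301, except 3774003 in D234G 1 and 4921958 in D234G 2. By their roX2, a noncoding RNA made in males for dosage compensation, the libraries fell into a set at 19.5 to 40.4 CPM (gene counts scaled to a common library total), made up of D234G, R873W, Y874C, WT 1 and WT 2, and a set at 0.142 to 0.941 CPM, made up of A224T, L854F, JmjC and WT 3 to 5. Every mutant strain lay in 1 set, so each result is given against all WT libraries and against those of its own set, called same-set. Levels are CPM after TMM scaling, a gene is called when edgeR's adjusted p over 12093 tested genes is under 0.05, and all folds are log2 folds of strain over WT unless another pair is named. The 6 strains share the WT libraries, so their folds are not independent of each other. Kdm5 RNA had log2 folds over WT of -0.087 in JmjC to 0.25 in R873W. The changes are in its coding sequence, so its level does not check the labels.

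D234G heads held more RNA of every main proteasome gene. Their summed level was 3190, 3454 and 3474 CPM in the D234G libraries, against 2280, 2166, 1993, 1781 and 1630 CPM in the WT libraries. Every D234G library thus stood above every WT library, and above the 1675 to 2526 CPM of the other strains' 15 libraries. As a share of all gene counts the 32 genes made up 0.338 ± 0.0121% in D234G and 0.193 ± 0.0299% in WT (SD, n = 3 and 5).

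All 32 main genes rose in D234G against WT and 0 fell, where 25.3% of all genes tested rose and 19.0% fell. Their log2 folds ran from 0.58 (Prosbeta2) to 0.95 (Rpn3) with a median of 0.78, beside a median of 0.023 over all genes, and the standard errors were 0.076 to 0.19. Against WT 1 and 2, the same-set libraries, 29 of 32 rose (20.3% of all genes), with a median of 0.57 and a range of 0.34 to 0.84. Prosbeta4 (adjusted p = 0.059), Prosbeta5 (0.092) and Prosbeta6 (0.1) were the 3 that did not pass there. For no main gene did the D234G and WT libraries overlap, and 13.8% of all genes had every D234G library above every WT library. For 30 of 32 every D234G library was also above all 20 other head libraries, which held for 4.47% of all genes; the exceptions were Rpn9 and Prosalpha5.

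**Figure D1:**
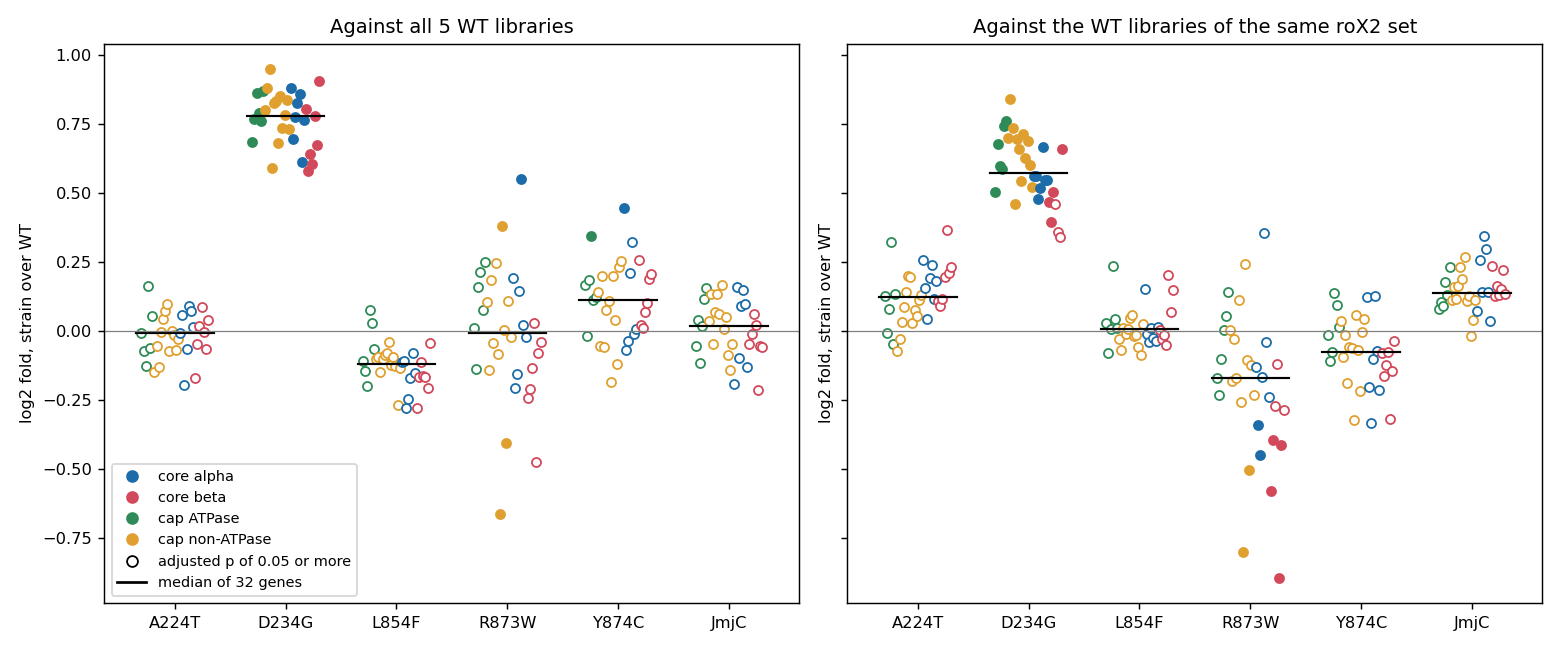
Log2 folds over WT of the 32 main proteasome genes (y axis) in 6 strains (x axis), against all 5 WT libraries at left and against the WT libraries of the same roX2 set at right; each point is 1 gene, filled where edgeR's adjusted p was under 0.05, and the line is the median. D234G has all points above 0.5 at left, with medians of 0.78 at left and 0.57 at right, and R873W has 8 filled points below 0 at right.

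The Rpt ATPases form the ring that unfolds substrates, and all 6 rose in D234G. Rpt5 measured 91.9, 122 and 109.8 CPM in the D234G libraries, against 65.9, 63.7, 65.2, 63.2 and 61.2 CPM in the WT libraries. The WT libraries were nearly level and the D234G libraries all above them, with a log2 fold of 0.76 ± 0.10 (SE, adjusted p = 8.9e-06) and 0.74 same-set. Rpt6 (chrX:21316052-21317663, dm6) measured 108, 133 and 117 CPM in D234G, against 73.2, 67.4, 69.1, 65.9 and 50.2 CPM in WT. WT 5 was the lowest, the groups were apart, and the log2 fold was 0.87 ± 0.11 (adjusted p = 1.0e-05) and 0.76 same-set. The folds of the 6 ATPases ranged from 0.68 for Rpt1 to 0.87 for Rpt6.

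The 12 Rpn genes also all rose in D234G, against all WT and same-set. Rpn10 (chr3L:21537000-21538582, dm6), which binds ubiquitin chains, had the smallest p of the 32. It measured 117, 119 and 125 CPM in the D234G libraries, against 78.8, 77.4, 75.9, 65.5 and 64.5 CPM in the WT libraries. The groups were well apart, with a log2 fold of 0.73 ± 0.076 (adjusted p = 1.8e-06) and 0.63 same-set. Rpn6, the lid subunit that ties the cap to the core, measured 183, 185 and 193 CPM in D234G, against 119, 112, 106, 97.1 and 92.0 CPM in WT. Its log2 fold was 0.83 ± 0.11 (adjusted p = 1.0e-05). Rpn3 of the lid had the largest fold of the 32 (0.95 ± 0.15, adjusted p = 5.0e-05), at 127, 128 and 131 CPM in D234G, against 81.9, 72.8, 67.4, 57.9 and 53.6 CPM in WT. Rpn2, a large scaffold of the cap's base, led the same-set folds at 0.84. The smallest Rpn fold was that of Rpn5, at 0.59 against all WT and 0.46 same-set.

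Rpn8 and Rpn11 form the pair that removes ubiquitin from substrates, Rpn11 being the enzyme. Rpn8 measured 96.6, 101 and 94.1 CPM in D234G, against 70.2, 62.8, 59.8, 55.1 and 54.5 CPM in WT. Rpn11 measured 73.7, 94.4 and 94.6 CPM in D234G, against 57.8, 51.5, 56.5, 46.0 and 43.8 CPM in WT. For neither gene did the groups overlap, and the log2 folds were 0.68 ± 0.10 for Rpn8 (adjusted p = 4.2e-05) and 0.78 ± 0.16 for Rpn11 (adjusted p = 5.6e-04). Rpn9, another lid subunit, measured 90.1, 112 and 109.5 CPM in D234G, against 66.0, 61.1, 60.1, 50.6 and 50.3 CPM in WT. Its log2 fold was 0.85 ± 0.13 (adjusted p = 5.6e-05), and R873W 1, at 98.1 CPM, stood above the lowest D234G library. Rpt4 measured 91.9, 110.0 and 107 CPM in D234G, against 74.6, 62.8, 55.8, 55.5 and 48.7 CPM in WT, a log2 fold of 0.79 ± 0.12 (adjusted p = 4.2e-05).

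All 7 alpha subunits rose in D234G, by log2 folds of 0.61 (Prosalpha6) to 0.88 (Prosalpha1), and by 0.48 to 0.67 same-set. Prosalpha5 measured 67.7, 77.3 and 75.4 CPM in D234G, against 45.9, 47.0, 44.8, 35.3 and 29.6 CPM in WT. WT 4 and WT 5 were low among the WT libraries, and the log2 fold was 0.86 ± 0.14 (adjusted p = 8.3e-05) and 0.67 same-set.

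The beta subunits that carry the proteolytic sites all rose in D234G against all WT, and 2 of these 3 also passed same-set. Prosbeta5, the chymotrypsin-like site, measured 107, 114 and 118 CPM in the D234G libraries, against 90.4, 86.6, 58.3, 51.7 and 43.5 CPM in the WT libraries. WT 1 and 2 lay between D234G and WT 3 to 5. The log2 fold was 0.78 ± 0.19 against all WT (adjusted p = 0.0026) and 0.36 ± 0.16 same-set (adjusted p = 0.092), which did not pass. Prosbeta1, the caspase-like site, measured 71.1, 68.9 and 80.1 CPM in D234G, against 55.3, 51.3, 42.6, 31.9 and 29.5 CPM in WT. Its log2 folds were 0.80 ± 0.18 (adjusted p = 0.0012) and 0.47 same-set (adjusted p = 0.049). Prosbeta2, the trypsin-like site, measured 103, 94.2 and 92.1 CPM in D234G, against 74.8, 71.7, 64.7, 60.1 and 50.9 CPM in WT. Its log2 fold was 0.58 ± 0.11 (adjusted p = 4.0e-04), the smallest of the 32, and 0.39 same-set (adjusted p = 0.02). Same-set, 4 of 7 beta, 7 of 7 alpha, 6 of 6 Rpt and 12 of 12 Rpn genes passed; a difference between these groups of genes was not tested.

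**Figure D2:**
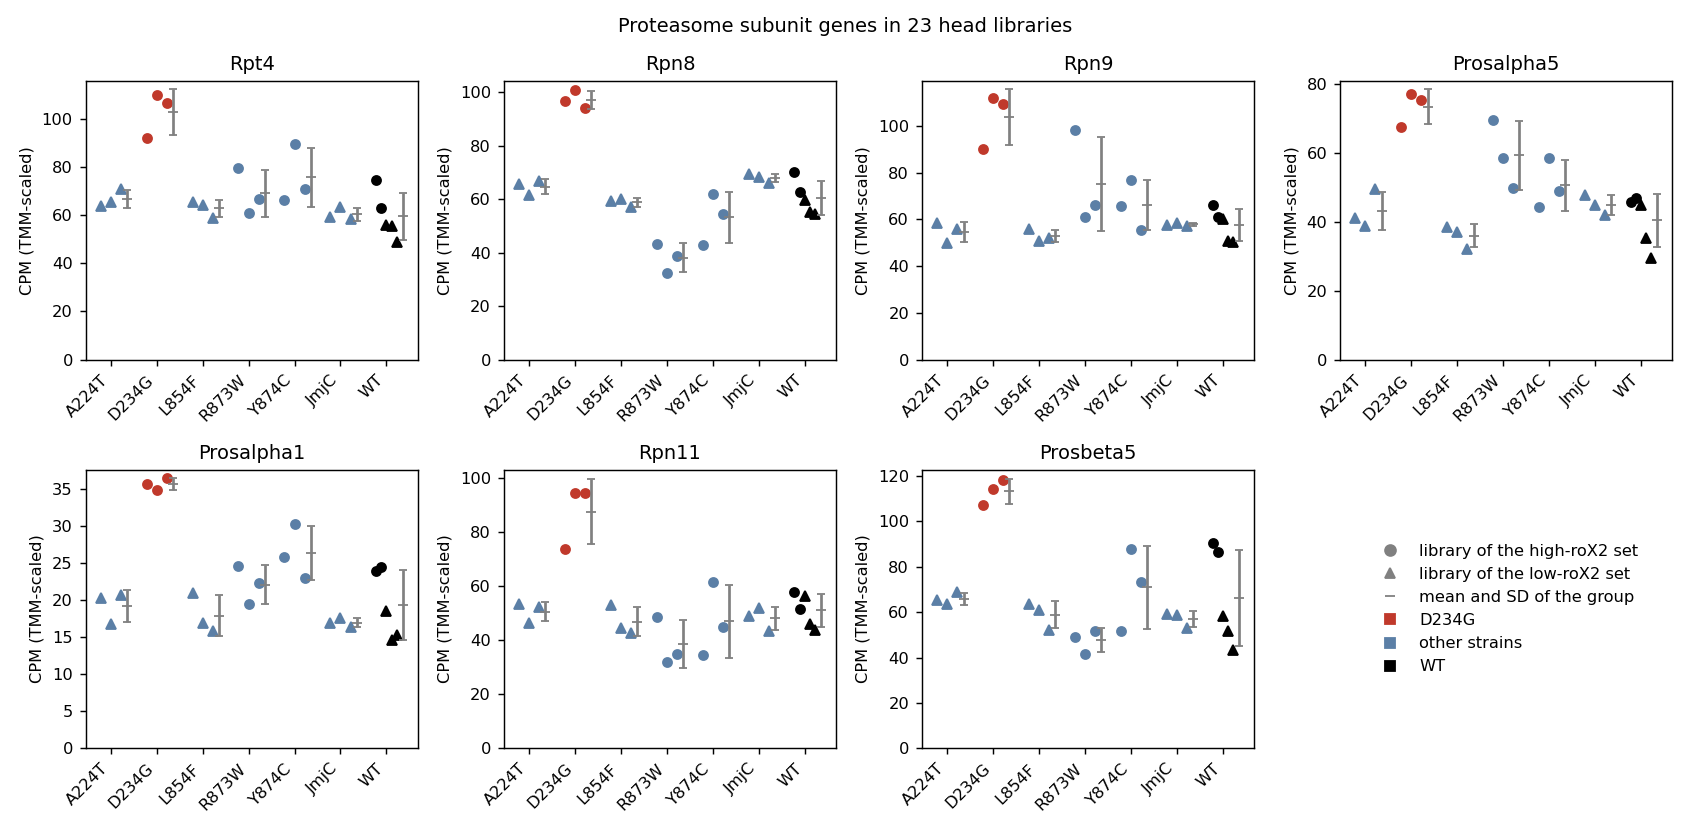
Levels (y axis, CPM) of Rpt4, Rpn8, Rpn9, Prosalpha5, Prosalpha1, Rpn11 and Prosbeta5 in each head library, by strain with WT at the right end (x axis); circles are libraries of the high-roX2 set, triangles those of the low-roX2 set, and the gray marks give mean and SD. D234G lies above WT in all 7 panels, and Rpn8 lies at 32.4 to 43.4 CPM in R873W.

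D234G 2 lacked most of the male reproductive transcripts that D234G 1 and 3 carried, and its summed proteasome level lay between theirs. The 12 testis germline markers summed to 776, 1.84 and 1019 CPM in D234G 1, 2 and 3, with 8 of 12 at 0 in D234G 2, against 1.72 to 2.46 CPM in WT. The 11 accessory gland and ejaculatory duct markers summed to 483 and 163 CPM in D234G 1 and 3 and were all at 0 in D234G 2, against 0.104 to 0.414 CPM in WT. With D234G 2 alone the median log2 fold of the main genes was 0.78 and 24 of 32 rose (4.71% of the 12596 genes tested in that fit rose). Against the same-set WT libraries it was 0.60, with 13 of 32 (3.64%). These values rest on 1 D234G library, which is assumed to vary like the other groups. All 18 Rpt and Rpn genes passed with D234G 2 alone against all WT, and 6 of 14 Prosalpha and Prosbeta genes. Prosbeta1 (0.69, adjusted p = 0.12), Prosbeta2 (0.53, adjusted p = 0.063) and Prosbeta5 (0.77, adjusted p = 0.1) did not pass there.

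Markers of muscle were also higher in D234G. All 6 of them rose (5 of 6 same-set), and they summed to 10528 to 11233 CPM in D234G, against 4383 to 6571 CPM in WT. The 3 hemocyte markers all fell (2 of 3 same-set), with sums of 109.6 to 173 CPM in D234G, against 234.3 to 319.6 CPM in WT. The 4 neuronal markers summed to 3674 to 4067 CPM in D234G, against 3149 to 3773 CPM in WT, and 0 of 4 passed. The 5 fat body markers (Fbp1, Lsp2 and the yolk protein genes Yp1, Yp2 and Yp3) summed to 7661 to 10267 CPM in D234G. Their sums were 7797 and 9152 CPM in WT 1 and 2, and 42103 to 50492 CPM in WT 3 to 5. Against all WT, 2 of the 5 rose and 3 fell, and same-set 1 rose and 0 fell. In R873W and in Y874C, 3 of 6 muscle markers passed. The muscle sums were 8736 to 10343 CPM in R873W and 7783 to 10089 CPM in Y874C. The proteasome sums were 1675 to 2341 CPM in R873W and 1824 to 2526 CPM in Y874C. The part of muscle RNA in the D234G result was not tested. In bulk heads, more cells of a type and more RNA per cell cannot be told apart.

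D234G also stood above the other strains of its own roX2 set. Against the mean of R873W and Y874C all 32 main genes rose and 0 fell (25.1% of all genes rose), with a median log2 fold of 0.68 and a range of 0.42 (Prosalpha5) to 1.11 (Rpn8). Rpn8 had the smallest p (1.11 ± 0.10, adjusted p = 2.7e-07), followed by Rpn10 (0.71 ± 0.073, adjusted p = 2.0e-06), Prosalpha2 (0.83 ± 0.10, adjusted p = 1.0e-05) and the ATPase gene Rpt2 (0.85 ± 0.10, adjusted p = 1.3e-05). The log2 folds of Prosbeta1, Prosbeta2 and Prosbeta5 were 0.80, 0.67 and 0.97, all called. With D234G 2 alone, 19 of 32 rose (3.52% of all genes), with a median of 0.73.

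R873W moved a few main genes in opposite directions, and which of them passed depended on the WT libraries. Against all WT, 2 rose (21.9% of all genes) and 2 fell (21.8%), with a median log2 fold of -0.008. Rpn8 fell to 43.4, 32.4 and 38.8 CPM in the R873W libraries, against 54.5 to 70.2 CPM in WT. The groups did not overlap, and the log2 fold was -0.66 ± 0.11 (adjusted p = 8.5e-05) and -0.80 same-set (adjusted p = 4.5e-05). Its partner Rpn11 fell to 48.8, 32.1 and 34.8 CPM in R873W, against 43.8 to 57.8 CPM in WT, by a log2 fold of -0.41 ± 0.16 (adjusted p = 0.047), with R873W 1 inside the WT range. Prosalpha5 rose to 69.7, 58.6 and 49.9 CPM in R873W, against 29.6 to 47.0 CPM in WT, with no overlap (0.55 ± 0.14, adjusted p = 0.0037), but did not pass same-set (0.36, adjusted p = 0.082). Rpn9 rose to 98.1, 60.9 and 66.4 CPM in R873W, against 50.3 to 66.0 CPM in WT, where 1 R873W library lay inside the WT range (0.38 ± 0.13, adjusted p = 0.025), and it did not pass same-set (0.24, adjusted p = 0.24).

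Against WT 1 and 2 only, 8 main genes fell in R873W and 0 rose (18.8% of all genes fell), with a median log2 fold of -0.17 beside 0.019 over all genes. These calls rest on 2 WT libraries, which had the highest proteasome sums of the 5 (2280 and 2166 CPM). The 3 proteolytic subunits were among the 8. Prosbeta5 fell to 49.2, 41.6 and 51.9 CPM in R873W, against 90.4 and 86.6 CPM in WT 1 and 2, by a log2 fold of -0.89 ± 0.15 (adjusted p = 2.3e-04). Prosbeta1 (-0.58 ± 0.17, adjusted p = 0.012) and Prosbeta2 (-0.40 ± 0.12, adjusted p = 0.014) fell too. The others were Rpn8, Rpn11 (-0.50), Prosalpha3 (-0.45), Prosbeta6 (-0.41) and Prosalpha2 (-0.34). Against all 5 WT libraries the log2 folds of Prosbeta1, Prosbeta2 and Prosbeta5 were -0.24, -0.21 and -0.47, and none passed (adjusted p = 0.053 for Prosbeta5). Same-set, R873W also had 3 of 5 fat body markers called higher, with sums of 17988 to 22267 CPM in R873W, against 7797 and 9152 CPM in WT 1 and 2. Higher there too were 2 of 6 muscle, 2 of 4 neuronal and 2 of 3 antennal markers. The share of all genes that rose same-set is not given, and against all WT it was 21.9%. These counts are therefore not read as shifts of cell types. Testis germline markers summed to 19.6 to 172 CPM in R873W, against 1.72 and 2.12 CPM in WT 1 and 2. Accessory gland and ejaculatory duct markers summed to 4.93 to 324 CPM in R873W, against 0.104 and 0.414 CPM in WT 1 and 2. Both lists were near 0 in WT and could pass the filter through D234G or R873W, so no count of them is given. The part of these cells in the R873W result was not tested.

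Single libraries decided much of the R873W count. R873W 1 had the highest summed proteasome level of its strain, the 3 libraries measuring 2341, 1675 and 1911 CPM. Without R873W 1, 1 main gene rose and 2 fell. Without R873W 2, 4 rose and 1 fell, and without R873W 3, 2 rose and 1 fell. With all libraries 21.9% of all genes rose and 21.8% fell, and shares for the fits without 1 library are not given. The counts thus show only how far the calls depend on single libraries. Leaving out WT 1 gave 5 that rose and 1 that fell, leaving out WT 2 or WT 3 gave 2 that rose and 1 that fell, leaving out WT 4 gave 1 that rose and 3 that fell, and leaving out WT 5 gave 1 that rose and 5 that fell.

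Y874C heads had few calls among these genes. Of the 32, 2 rose (9.27% of all genes) and 0 fell (10.0%), with a median log2 fold of 0.11. Rpt4 measured 66.3, 89.6 and 70.8 CPM in Y874C, against 74.6, 62.8, 55.8, 55.5 and 48.7 CPM in WT, and the groups overlapped (0.35 ± 0.12, adjusted p = 0.045). Prosalpha1 measured 25.8, 30.2 and 22.9 CPM in Y874C, against 23.9, 24.4, 18.5, 14.6 and 15.2 CPM in WT, again with overlap (0.44 ± 0.15, adjusted p = 0.042). Same-set, 0 of 32 passed by edgeR (12.8% of all genes were called in either direction, 2 of the 32 had an unadjusted p under 0.05, and DESeq2 was run only against all WT, where it called 2). The same-set median was -0.075, with Rpt4 and Prosalpha1 at 0.14 and 0.12. The 3 Y874C libraries had proteasome sums of 1824, 2526 and 1978 CPM, so Y874C 2 stood high. The count against all WT was 0 without WT 3, WT 4, WT 5, Y874C 2 or Y874C 3, and 1 without Y874C 1. Prosbeta1, Prosbeta2 and Prosbeta5 had log2 folds of 0.26, 0.021 and 0.10, none of which passed.

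Set directly against R873W, Y874C differed in 1 main gene. Rpn8 measured 43.1, 62.0 and 54.6 CPM in Y874C, against 43.4, 32.4 and 38.8 CPM in R873W, a log2 fold of 0.48 ± 0.12 (adjusted p = 0.0085), where 9.62% of all genes rose. Y874C 1 fell within the R873W range. The count was 0 without R873W 2 or Y874C 2, and 6 without Y874C 1. Prosbeta5 (0.58 ± 0.21, adjusted p = 0.061), Prosbeta1 (0.50 ± 0.20, adjusted p = 0.079) and Prosbeta2 (0.23 ± 0.13, adjusted p = 0.2) did not pass.

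In A224T, L854F and JmjC no main proteasome gene passed, in either direction. The called share of all genes was 14.8% in A224T, 7.79% in L854F and 26.8% in JmjC, and same-set 17.7%, 11.3% and 25.6%, with 0 of 32 members called by edgeR in each of the 6 comparisons. DESeq2 also called 0 in each strain against all WT, and 0 members had an unadjusted p under 0.05 by edgeR there. Same-set, 2 had one in A224T, 1 in L854F and 3 in JmjC. The A224T log2 folds ran from -0.20 to 0.16 with a median of -0.0091. Those of L854F ran from -0.28 to 0.077 with a median of -0.12, and those of JmjC from -0.22 to 0.17 with a median of 0.019. The medians against same-set WT libraries were 0.12 in A224T, 0.0054 in L854F and 0.14 in JmjC, with 28, 17 and 31 of 32 genes above 0.

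Prosbeta5 shows the size of these differences. It measured 65.4, 63.6 and 68.8 CPM in A224T, 63.5, 60.8 and 52.3 CPM in L854F and 59.1, 58.7 and 53.1 CPM in JmjC, against 43.5 to 90.4 CPM in WT, with every library of these strains inside the WT range. Its log2 folds were -0.0048 ± 0.19 in A224T, -0.17 ± 0.19 in L854F and -0.22 ± 0.19 in JmjC. Prosbeta1 and Prosbeta2 had log2 folds of -0.17 and -0.049 in A224T, -0.28 and -0.17 in L854F, and -0.047 and -0.011 in JmjC. Between JmjC and the mean of A224T and L854F, 0 of 32 passed by edgeR (17.5% of all genes were called, 0 members had an unadjusted p under 0.05, and DESeq2 called 0), with a median of 0.10. The log2 folds of Prosbeta1, Prosbeta2 and Prosbeta5 in that contrast were 0.18, 0.10 and -0.13.

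The WT libraries themselves differed in these genes between the roX2 sets. WT 3 to 5 had 0 main genes higher and 11 lower than WT 1 and 2 (13.2% of all genes fell), with all 32 folds below 0 and a median log2 fold of -0.31. Prosbeta5 fell most, to 58.3, 51.7 and 43.5 CPM in WT 3 to 5, against 90.4 and 86.6 CPM in WT 1 and 2 (-0.79 ± 0.15, adjusted p = 7.9e-04). Prosalpha1 (-0.59), Prosbeta6 (-0.61) and the ATPase gene Rpt3 (-0.47) followed by p, Prosbeta1 (-0.62) fell as well, and Prosbeta2 (-0.32, adjusted p = 0.052) did not pass. The count was 3 without WT 1, 6 without WT 2, 17 without WT 3, 7 without WT 4 and 6 without WT 5. The 5 fat body markers include the yolk protein genes Yp1, Yp2 and Yp3. They summed to 42103 to 50492 CPM in WT 3 to 5, against 7797 and 9152 CPM in WT 1 and 2, with 3 of 5 called higher. They separated the same WT libraries as roX2, so their sum does not by itself measure the amount of fat body. Their part in the difference was not tested.

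Prosalpha1 lies beside a near copy, Prosalpha1R (chr2R:7827303-7828678 and chr2R:7830413-7831771, dm6, minus strand), and reads of the pair may have been split. Prosalpha1 measured 35.7, 34.7 and 36.4 CPM in D234G, against 23.9, 24.4, 18.5, 14.6 and 15.2 CPM in WT. Prosalpha1R measured 103, 96.7 and 107 CPM in D234G, against 54.5, 52.3, 73.3, 57.9 and 55.1 CPM in WT. Both rose (0.88 ± 0.15, adjusted p = 1.4e-04, and 0.81 ± 0.11, adjusted p = 1.7e-05), and their sum was 131 to 143 CPM in D234G, against 70.3 to 91.8 CPM in WT. Between WT 3 to 5 and WT 1 and 2 their log2 folds had opposite signs, -0.59 and 0.22, while the sums were 91.8, 72.5 and 70.3 CPM in WT 3 to 5, against 78.4 and 76.7 CPM in WT 1 and 2. In JmjC, Prosalpha1R rose (0.32, adjusted p = 0.031) but not same-set (0.24, adjusted p = 0.14), and Prosalpha1 had a fold of -0.19 (adjusted p = 0.39). In Y874C, Prosalpha1R rose same-set (0.44, adjusted p = 0.03) but did not pass against all WT (0.30, adjusted p = 0.055), the reverse of Prosalpha1. Values of the single genes are therefore uncertain.

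The other 15 paralogs, several of them known from the testis, were low or at 0 in most head libraries. They summed to 61.2, 14.1 and 80.8 CPM in D234G 1, 2 and 3, against 7.05 to 11.6 CPM in WT. D234G 2 had 9 of the 15 at 0 counts, which allows up to 0.613 CPM for each (3 counts, counting error only). Prosbeta5R1 measured 4.43, 0 and 8.29 CPM in D234G, against 0 in WT 1 to 4 and 0.121 CPM in WT 5. Prosalpha4T2 measured 6.25, 0 and 7.42 CPM in D234G, against 0.207 to 0.574 CPM in WT. Prosbeta4R2 and Prosbeta5R2 had no count in any WT library, which allows up to 0.0333 CPM over the 5, and measured 2.86, 0 and 5.25 CPM and 4.43, 0 and 6.28 CPM in the D234G libraries. D234G 1 and 3 were thus high and D234G 2 was not.

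D234G 2 was the lowest D234G library for most of the rest as well. Prosalpha6T measured 3.64, 0.613 and 6.23 CPM in D234G, against 0 to 0.382 CPM in WT, and Prosbeta2R2 2.86, 0.613 and 5.20 CPM, against 0.382 to 0.604 CPM in WT. Rpt3R measured 5.21, 1.23 and 7.47 CPM in D234G, against 0.828 to 1.75 CPM in WT, and Rpn12R 5.99, 0 and 4.48 CPM, against 0 to 0.0546 CPM in WT. In D234G 1 and 3, Rpn13R was at 3.38 and 2.58 CPM, Prosbeta2R1 at 2.34 and 2.01 CPM and Prosbeta4R1 at 1.30 and 2.32 CPM, each at 0 in D234G 2. Prosalpha4T1 measured 0.781, 0.613 and 2.52 CPM in D234G, against 0.538 to 1.21 CPM in WT, and Prosalpha3T 0.521, 0 and 1.70 CPM in D234G, against 0.0518 to 0.156 CPM in WT, so both were highest in D234G 3 and lowest in D234G 2. The testis germline sum given above was also lowest in D234G 2. It was highest in D234G 3, whereas Rpn12R, Rpn13R and Prosbeta2R1 were highest in D234G 1. The part of testis RNA was not tested. R873W, whose testis markers summed to 19.6, 172 and 88.5 CPM, had paralog sums of 11.2, 16.5 and 13.8 CPM. Because several of these genes passed the filter through D234G, no count over those tested is given.

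**Figure D3:**
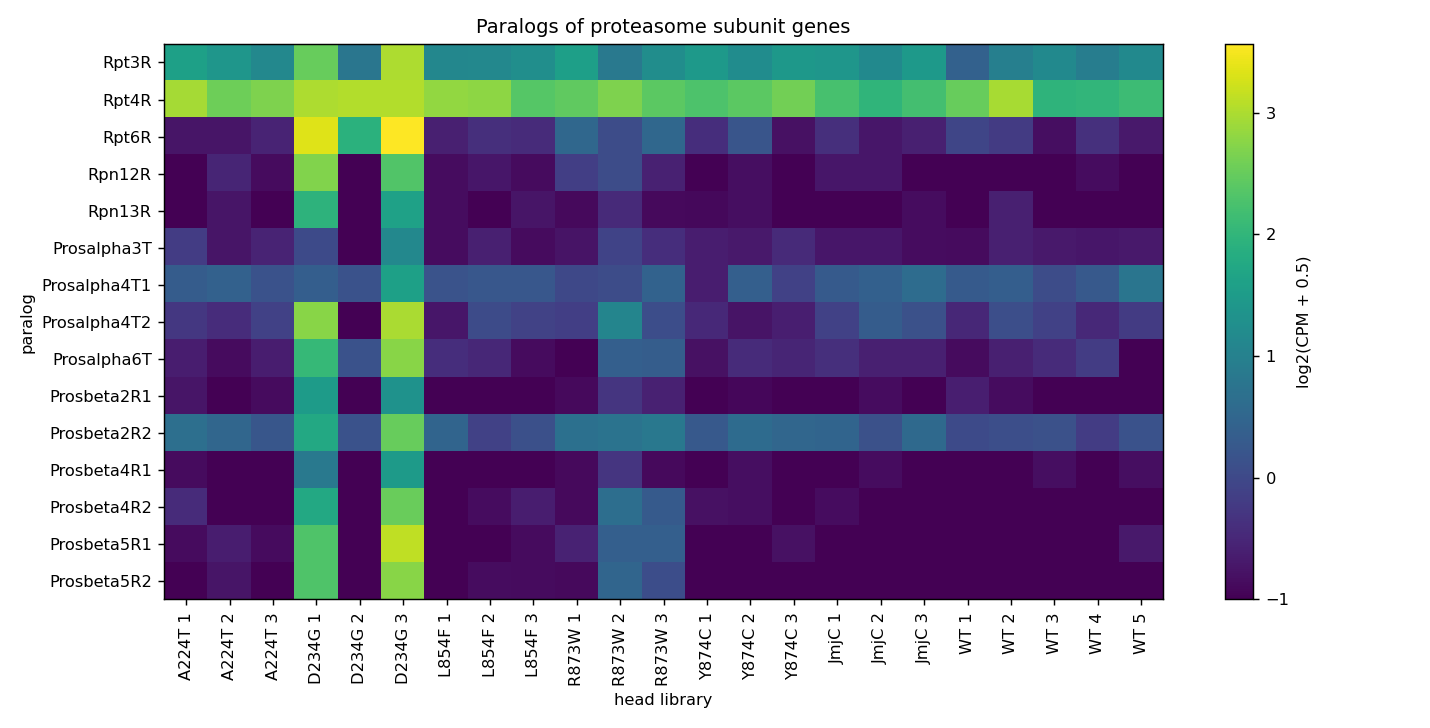
Level of 15 paralogs (rows; log2 of CPM plus 0.5, colour) in each head library (columns), strains at left and WT at right. Most rows are bright in D234G 1 and 3 and dark in D234G 2, Rpt4R is bright throughout, and Rpt6R is raised in all D234G libraries.

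The ATPase paralogs Rpt6R and Rpt4R were above 3 CPM in D234G 2 as well. Rpt6R measured 9.63, 3.27 and 11.3 CPM in the D234G libraries, against 0.466, 0.365, 0.0598, 0.273 and 0.121 CPM in WT, so D234G 2 was the lowest of its strain and still above every WT library. Its log2 fold was 4.93 ± 0.56 (adjusted p = 4.7e-06), and 3.60 with D234G 2 alone (adjusted p = 0.0067). Rpt4R had a level in every library, at 7.55, 7.77 and 7.68 CPM in D234G, against 5.18, 7.35, 3.41, 3.50 and 3.86 CPM in WT, with the D234G libraries nearly level. It rose in D234G against all WT (0.72 ± 0.21, adjusted p = 0.011) but did not pass same-set (0.29, adjusted p = 0.27). In A224T and L854F, Rpt4R measured 5.42 to 7.25 CPM and 4.65 to 6.63 CPM. It rose there against WT 3 to 5 (0.79, adjusted p = 0.003, and 0.72, adjusted p = 0.0086) but did not pass against all WT (adjusted p = 0.2 and 0.36).

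Genes that assemble, activate or serve the proteasome moved less evenly than the subunits. Of a list of 24 such genes 22 were found, and in D234G 8 rose and 5 fell (6 and 2 same-set), with a median log2 fold of 0.10. Named after their values were seen, the deubiquitinases Uch-L5 (1.51, adjusted p = 1.4e-05) and Usp14 (0.95, adjusted p = 4.8e-05), which act on the proteasome, and the assembly factor Pomp (0.70, adjusted p = 5.3e-04) rose, and REG, the gene of an alternative activator of the core, fell (-0.53, adjusted p = 2.1e-04). All of these also passed same-set. In the other strains the counts that rose and fell were 1 and 2 in R873W, 0 and 2 in Y874C, 0 and 1 in A224T, 0 and 0 in L854F, and 4 and 1 in JmjC. Of all genes, 25.3% rose and 19.0% fell in D234G, 21.9% and 21.8% in R873W and 9.27% and 10.0% in Y874C, and 14.8% were called in A224T, 7.79% in L854F and 26.8% in JmjC.

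Of the genes of that list called in more than 1 strain, Rad23 was called higher in D234G, as the subunits were, and the others were not. Pngl, which strips sugars from glycoproteins, had log2 folds of -0.33 in D234G, -0.28 in R873W, -0.24 in Y874C and 0.47 in JmjC, all called, of which that in JmjC also passed same-set. The transcription factor gene cnc fell in D234G (-0.21) and Y874C (-0.23) and rose in JmjC (0.19), none of which passed same-set. The ubiquitin-binding protein gene rngo fell in D234G (-0.22, not called same-set) and rose in JmjC (0.49). Npl4, a cofactor of the p97 unfoldase, fell in A224T (-0.46, not called same-set) and JmjC (-0.57). The shuttle factor genes moved apart, Rad23 rising in D234G (0.20) and R873W (0.32) and Ubqn falling in D234G (-0.29) and R873W (-0.24).

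In knockdown flies the authors' deposited table held higher RNA for every main subunit and called none higher in footprints. In the authors' deposited table Kdm5 itself had log2 folds, knockdown over control, of -0.97 in RNA and -2.02 in footprints. For RNA the authors' deposited table called all 32 main genes higher at an adjusted p under 0.05 (10.1% of all genes with a p) and 0 lower (10.7%), with a median of 0.83 and a range of 0.45 (Prosbeta6) to 1.12 (Rpn3). The all-gene median of RNA in the authors' deposited table was -0.034. Medians in the authors' deposited table were 0.93 for Rpt, 1.00 for Rpn, 0.54 for alpha and 0.55 for beta genes. The table does not say which libraries give its RNA column, and it holds no value per library, so no spread can be given.

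Cap genes stood mostly above core genes in the RNA column of the authors' deposited table. In RNA the authors' deposited table gives Rpn3 1.12, Rpn9 1.12, Rpn11 1.03, Rpt5 1.00 and Rpn10 0.97. Of the proteolytic subunits the authors' deposited table gives Prosbeta1 0.52, Prosbeta2 0.74 and Prosbeta5 0.55. All 14 core genes in the authors' deposited table lay between 0.45 and 0.83, and all 18 cap genes between 0.67 and 1.12, so the ranges overlapped; the difference between them was not tested.

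Footprints, the ribosome-protected fragments, did not follow the RNA. In footprints 0 main genes rose by the authors' deposited table and 7 fell, where 7.22% of all genes with a p rose and 18.0% fell. Above 0 were 8 of the 32 footprint values in the authors' deposited table, with a median of -0.15 beside -0.061 over all genes. The 7 that fell in the authors' deposited table were Prosalpha7 (-0.42, adjusted p = 0.0046), Prosalpha5 (-0.37), Prosalpha1 (-0.36), Prosbeta6 (-0.36), Rpn13 (-0.32), Rpn2 (-0.32) and Rpn3 (-0.27). Footprint values of the proteolytic subunits in the authors' deposited table were 0.28 for Prosbeta1, -0.23 for Prosbeta2 and 0.14 for Prosbeta5, with none called. The footprint value was below the RNA value for all 32 genes of the authors' deposited table, as it was for 51.8% of all genes. All 32 carry the class Buffering in the authors' deposited table, which 12.8% of all its genes carry.

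A column of translational efficiency in the authors' deposited table called 1 main gene lower, Prosalpha7 (-0.42, adjusted p = 0.039), where it called 17.2% of all genes lower. For the main genes that column differed from the footprint column by at most 0.042 and from footprint minus RNA by a median of 0.836, both on the log2 scale of the authors' deposited table. It was therefore not read as a ratio of footprints to RNA. No test of footprints against RNA could be run here, since the table gives no value per library.

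**Figure D4:**
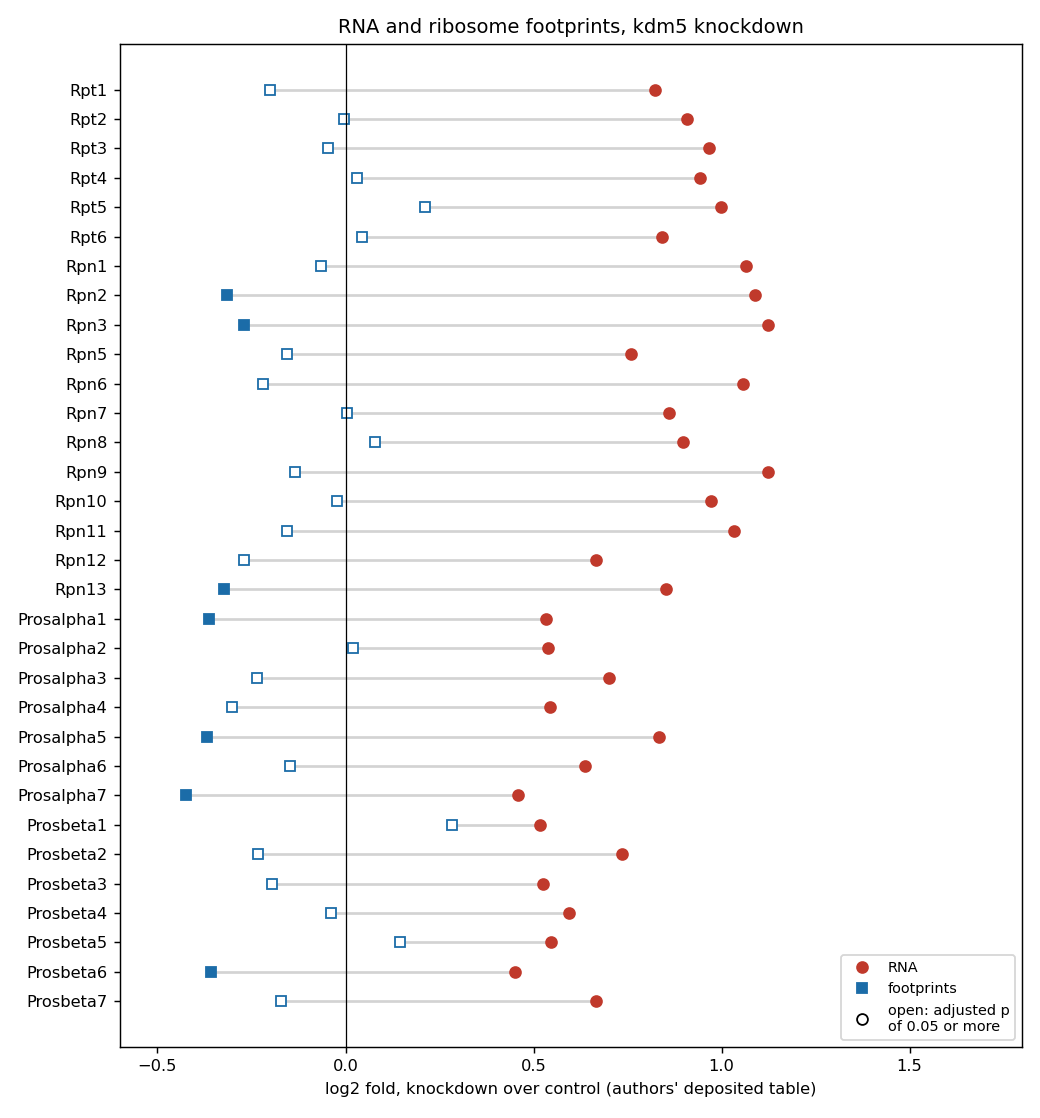
Log2 folds, knockdown over control, of the 32 main genes in the RNA and footprint columns of the authors' deposited table (x axis), 1 row per gene; red circles are RNA, blue squares are footprints, and open symbols have an adjusted p of 0.05 or more. RNA points lie between 0.45 and 1.12 and footprint points between -0.42 and 0.28, the footprint point lower for each gene.

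Other genes in the authors' deposited table bear on what the flies' samples held. Muscle markers in the authors' deposited table were called higher in RNA for 4 of 6 genes, such as Act57B (1.42) and Mhc (0.57), and lower in footprints for 6 of 6, such as Mhc (-1.16). Footprints there were called higher for 2 of 4 neuronal, 2 of 3 glial and 3 of 4 photoreceptor markers, and lower for 0. Medians of these 3 lists were 0.27, 0.28 and 0.32. Of 5 fat body markers, 2 fell in footprints and 0 rose. Mean RNA counts in the authors' deposited table were 334569 for the photoreceptor gene ninaE and 235939 for Yp3, a yolk protein gene of fat body. Their mean footprint counts there were 139739 and 41682. Footprints in the authors' deposited table fell for 11 of 12 testis germline markers (median -1.62) and for 9 of 11 accessory gland and ejaculatory duct markers (median -0.54), with none called in RNA, where 4 and 8 of them had a p. Mean RNA counts of these markers there were only 0 to 52.8, beside mean footprint counts of 4.58 to 735. For Acp36DE they were 8.35 and 447. The lack of calls in RNA therefore says little about these tissues. The part of these cells in the proteasome result was not tested.

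The list of assembly factors and helpers moved in part with the subunits. In RNA 9 of 22 rose and 2 fell by the authors' deposited table, and in footprints 0 rose and 3 fell. Over all genes of the authors' deposited table, 10.1% rose and 10.7% fell in RNA, and 7.22% rose and 18.0% fell in footprints. Named after their values were seen, Usp14 (0.97), Uch-L5 (0.91), the polyubiquitin gene Ubi-p5E (0.68) and Pomp (0.61) rose most in RNA in the authors' deposited table. Npl4 fell in RNA (-0.96) and footprints (-0.70) of the authors' deposited table, and rngo in RNA (-0.46). Among the paralogs, Rpt6R (1.19, adjusted p = 0.0021) and Prosalpha1R (0.53) rose in the RNA of the authors' deposited table. Prosalpha1 and Prosalpha1R had the same footprint fold and the same mean footprint count of 2699 in the authors' deposited table. Their mean RNA counts (5681 each) and RNA folds (0.53 each) in the authors' deposited table were also nearly the same. Values of this pair there cannot be taken as 2 separate measurements, and how the rows share reads was not tested. Footprints of Prosalpha6T, Prosbeta5R1, Prosbeta5R2 and Prosbeta4R2 fell in the authors' deposited table at mean counts of 2.90 to 10.9, beside the falls of the testis and accessory gland markers, and the part of those tissues was not tested.

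D234G heads and knockdown flies both held more RNA of all 32 main genes, measured in separate flies with separate controls. Rpn3 had the largest fold in D234G heads against all WT (0.95) and in the authors' deposited table (1.12). Same-set, Rpn2 was largest in D234G (0.84), with Rpn3 at 0.74. Prosbeta6 was lowest in the authors' deposited table (0.45) and lowest in D234G same-set (0.34), whereas Prosbeta2 was lowest in D234G against all WT. Each match thus held with only 1 choice of WT libraries. Across the 32 genes, the D234G fold and the RNA fold of the authors' deposited table had a Pearson r of 0.36 and a Spearman rho of 0.35 against all WT, and 0.74 and 0.74 same-set. These describe 32 genes that share libraries and are not independent replicates, so no p is given.

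**Figure D5:**
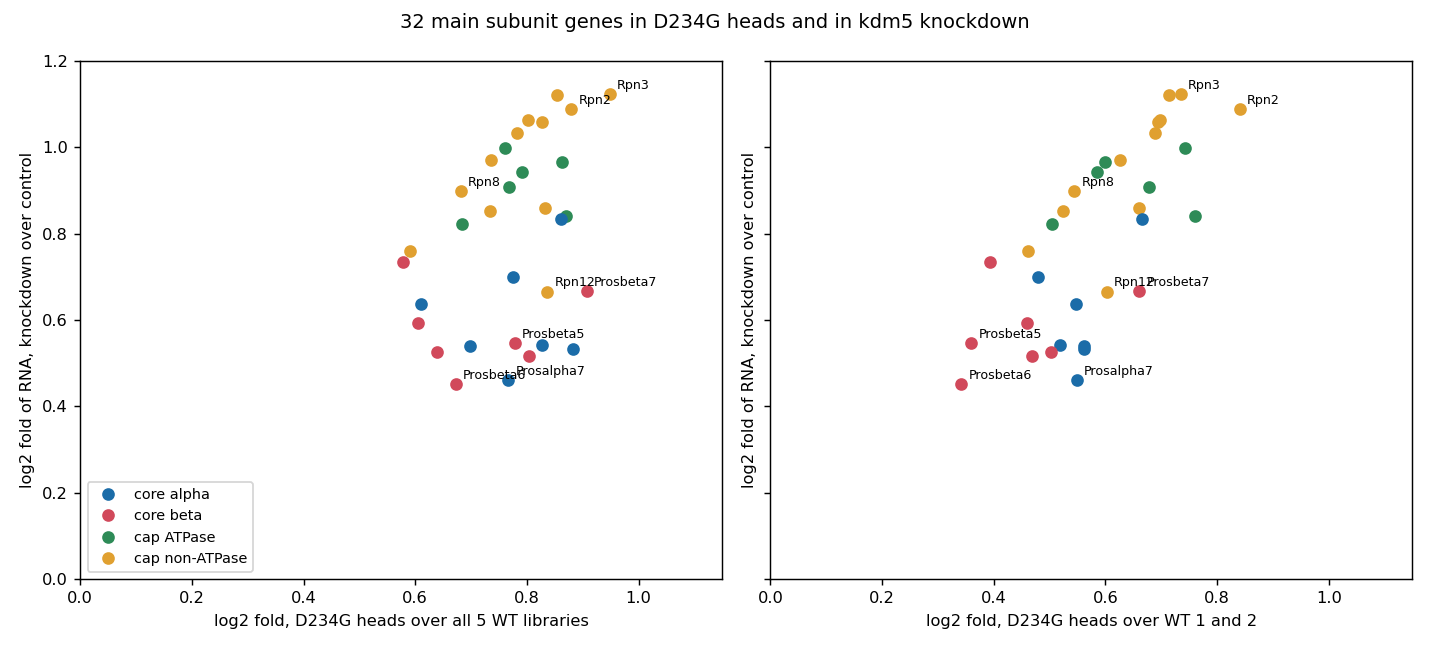
Log2 folds of the 32 main genes in D234G heads (edgeR) plotted with their RNA folds in knockdown flies (the authors' deposited table), against all WT at left and same-set WT at right; each point is 1 gene, coloured by subcomplex. All points lie above 0 on both axes, with r of 0.36 at left and 0.74 at right.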

How the data were processed

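RNA was measured in 23 libraries of fly heads and, by Ribo-Seq, in 12 libraries from kdm5 knockdown and control flies. The deposited head table holds raw counts per gene and per library, aligned to dm6 per the labels. For the tools fastp, STAR, featureCounts and DESeq2, named in the submitters' processing notes, neither version nor strand setting is stated in what was read here. For Ribo-Seq the authors' deposited table gives 1 comparison of knockdown with control, as log2 changes of RNA, footprints and translation efficiency per transcript, each with an adjusted p-value. It also gives mean counts, scaled by the authors in a way that it does not state. For that table the log base was read from its use of DESeq2, and of 30704 transcripts the one with the largest summed mean count was kept for each of 13963 genes.

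From the counts, 6052 rows of transposable elements and other features that are not genes were left out. Of 17830 genes, 12093 passed edgeR's filterByExpr. They were scaled with TMM and fitted in 1 model with a mean per group over all 23 libraries (R 4.3.3, edgeR 4.0.16, limma 3.58.1, quasi-likelihood F-test). The p-values were adjusted by Benjamini-Hochberg over all genes tested, with a threshold of 0.05. Alternatives were DESeq2 1.42.0, library size without TMM, no filter, fits of WT and 1 strain only, a replicate block, leaving out each library, and WT libraries of the same roX2 set (above or below 5 CPM). In simulated counts for D234G against WT (11894 genes), 22.7% of 97 genes changed by a log2 fold of 0.5 and 60.0% of 100 changed by 1 were recovered, with 2 false calls. Tables and figures were made with Python 3.11.15, numpy 2.4.6, pandas 2.3.3 and matplotlib 3.10.9.

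Replicates within a group differed by a chi-square of at least 7.54 per degree of freedom, so no library appeared to be deposited more than once. The labels do not say that replicates came from separate flies, so p-values measure only the spread between these libraries, which may be technical. The members, gene lists and tests were chosen with earlier results of these data known. Named main genes are up to 4 that rose and 4 that fell with the smallest p in each comparison, the proteolytic subunits, and 7 genes shown by library. Named paralogs are those with a group mean of at least 1 CPM, with Prosalpha3T below it added so that every paralog is given, and named pathway genes those called in more than 1 strain. Genes named as the largest or smallest of a range, as exceptions, or as such in the text were chosen after their values were seen. Reads of near copies such as Prosalpha1 and Prosalpha1R may have been split or lost.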

Additional observations from a re-analysis of the deposited data

Results flagged for a closer look

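The strains of the high-roX2 set differed from each other in these genes. Against the mean of R873W and Y874C, 32 main genes rose in D234G by a test of that difference. Against R873W, 1 main gene, Rpn8, rose in Y874C.

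Among the 5 WT libraries, 1 library stood apart from the others in 4 of the 48 sets of values checked (single genes and the summed level), where chance flags about 1 in 20. Prosalpha1R was at 73.3 CPM in WT 3, with the next library at 57.9 CPM. Rpn12R was at 0.0546 CPM in WT 4, Rpn13R at 0.156 CPM in WT 2 and Prosbeta5R1 at 0.121 CPM in WT 5, each with 0 counts in the other 4 WT libraries, so these 3 values are at or under the level of 3 counts.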

How the results depend on the processing

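No called result reversed. Counts in this section show only how far the calls depend on the processing, since shares over all genes are not given for each fit. D234G kept 32 main genes that rose whichever library was left out (medians 0.7057 to 0.8446), with medians of 0.7125 without the filter, 0.6544 with the replicate block, 0.5738 same-set and 0.5972 for D234G 2 alone same-set, where 13 rose. Against the mean of R873W and Y874C, 31 to 32 rose without 1 library (medians 0.6003 to 0.7351) and 19 with D234G 2 alone, and the median was 0.7322 with library size only and 0.6178 without the filter.

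In R873W against WT, the number that rose was 4 with DESeq2, 1 with library size only, 1 with WT and R873W alone, 1 with the block and 0 same-set. The number that fell was 1, 6 and 8 with DESeq2, the block and same-set, and 1 with WT and R873W alone. Its median was -0.1355 with the block and -0.1705 same-set. Without 1 library, 1 to 5 rose and 1 to 5 fell (medians -0.1308 to 0.1244). In Y874C, 1 rose with library size only and 1 without the filter, and 0 with WT and Y874C alone, with the block and same-set. Without 1 library 0 to 3 rose (medians -0.0331 to 0.194). Against R873W, 3, 2 and 3 rose in Y874C with library size only, without the filter and with the block, and 0 to 6 without 1 library (medians -0.0156 to 0.2547).

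With the block, 2 main genes were called in L854F and 1 in JmjC, and the medians were -0.1339 in A224T, -0.2395 in L854F and -0.1092 in JmjC. Same-set medians were 0.122, 0.0054 and 0.1362 in A224T, L854F and JmjC. Leaving out 1 library called 0 in each (medians -0.0704 to 0.0405 in A224T, -0.1825 to -0.0695 in L854F and -0.0426 to 0.0762 in JmjC). With library size only, the JmjC median was 0.1544 while the median of all genes moved to 0.137, and for JmjC set against the mean of A224T and L854F it was 0.1929, where leaving out 1 library called 0 (0.081 to 0.1468). WT 3 to 5 had 3 to 17 lower than WT 1 and 2 without 1 library (-0.3928 to -0.2215).

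In the authors' deposited table, 2 footprint values fell at an adjusted p under 0.01, and translation efficiency fell for 0 at 0.01 and 4 at 0.1. For named genes, 526 values kept their side of the threshold, 48 lost the call, 22 gained one and 35, called in neither fit, changed sign. The causes were not tested. The replicate numbers were not taken as pairs, since 0 of the 18 pairs with WT had a correlation over 0.1 (-0.141 to 0.0904) and 3 of 21 libraries correlated best with their own number. No replicate block was possible for the WT sets because the numbers do not repeat there. The 3774003 and 4921958 counts of D234G 1 and 2 limit the low paralogs most.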

Other observations

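Other head cell types, in D234G against WT, had marker sums of 1119 to 1198 CPM against 951 to 1128 CPM for 3 glial genes and 28163 to 29747 CPM against 31163 to 39429 CPM for 4 photoreceptor genes, with 1 gene higher and 1 lower in each list. The 3 antennal genes (Orco, Obp83a and Obp83b) summed to 13.9 to 22.7 CPM in D234G, against 17.7 to 278 CPM in WT. They were at 239 to 278 CPM in WT 3 to 5, against 17.7 and 18.0 CPM in WT 1 and 2, so they separated the same WT libraries as roX2.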
